A study of Mus musculus with 22 samples.

Results

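Of the 135566 regions over which H3K27ac was counted in 3 lines of mouse induced pluripotent stem (iPS) cells, 10348 (7.63%) lay far from any gene. A region was included when its midpoint was more than 50 kb from the extent of every protein-coding and long non-coding RNA (lncRNA) gene of the mm10 annotation, on chromosomes 1 to 19 other than chromosome 8. No H3K27ac value entered that choice. On the same 18 chromosomes there were 125232 regions, so the gene-distant regions made up 8.26% of them and 114884 other regions remained for comparison.

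The cells were derived from C57BL/6 embryonic fibroblasts, and every line carried Sox2, Klf4 and c-Myc. The OSKM line received Oct4 in addition. In place of Oct4 the C2 line received the zinc-finger artificial transcription factors ZFATF1, ZFATF2 and ZFATF3, and the C3 line received ZFATF1, ZFATF2 and ZFATF4. The lines carried an Oct4-MerCreMer with a Tomato/GFP reporter, for which iPS cells were given 100 nM 4-hydroxytamoxifen, and chromatin was fixed with 1.5% formaldehyde. H3K27ac and H3K9me3 were each measured in 2 libraries per line by chromatin immunoprecipitation with sequencing (ChIP-seq). The HA tag of the artificial factors was measured in 2 libraries of C2 cells at day 20, before full reprogramming, and in 2 libraries of cells with an empty vector, which give the background of the antibody. The labels do not say how replicates were made, and the p-values therefore reflect only the spread of libraries, which may be technical. Each factor set is represented by 1 line, so factor set and line cannot be told apart. The C3 line had its own pair of input libraries, while C2 and OSKM shared a pair, so line and input cannot be told apart in comparisons of C3 with OSKM or C2.

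Acetylation of lysine 27 on histone H3 marks active promoters and active enhancers, the regulatory DNA that can act on a promoter over a long distance. Trimethylation of lysine 9 on the same histone (H3K9me3) marks heterochromatin and silenced repeats. In pluripotent cells, Oct4 and Sox2 bind together at many enhancers, and some developmental genes are flanked by gene deserts that hold distal enhancers. A region is placed below by its 2 flanking protein-coding genes, with no claim that either is its target.

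Hairpins of 3 microRNAs in RefSeq (GRCm38.p6) overlapped gene-distant regions, and their mature sequences are shown because these are the transcripts within the regions whose sequence the reference tables hold. Capitals mark the seed (bases 2 to 8), and no seed was shared.
mmu-miR-137-5p: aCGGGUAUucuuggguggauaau
mmu-miR-137-3p: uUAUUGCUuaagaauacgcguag
mmu-miR-8099: cCAAGGCGugggaaagguugu
mmu-miR-1899: aGCGAUGGccgaaucugcuucc
The region over Mir137, a microRNA gene known for roles in neurons, was chr3:118433626-118433965 and held 19.3 and 23.1 normalized reads in C2, 11.5 and 18.1 in C3, and 23.4 and 14.6 in OSKM. OSKM overlapped both other lines there, and both C2 libraries lay above both C3 libraries. The regions over Mir8099-2 (chr12:93927150-93928454) and Mir1899 (chr9:8245847-8246847) were at 1 read in all 6 libraries.

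The distance to the nearest gene was 110 kb at the median and 7192 kb at most. It exceeded 100 kb for 5689 regions, 500 kb for 785 and 1 Mb for 275. The gene-distant share of regions ran from 3.84% on chromosome 19 to 12.2% on chromosome 12. Within genes of other types lay 368 midpoints, of which 187 were in pseudogenes, 50 in the immunoglobulin heavy chain locus Igh, 46 in the kappa light chain locus Igk and 32 in the T cell receptor locus Tcra. Counting genes of every type, 6586 of the regions were still more than 50 kb away.

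At the distance threshold, 2 regions lay just inside at 50.0 kb. The region chr7:131774386-131775151 between Bub3 and Gpr26 held 17.7 and 26.9 normalized reads in C2, 33.1 and 30.1 in C3, and 1.02 and 13.7 in OSKM. The region chr13:15877040-15878040 between Gli3 and Inhba was at 1 read in all libraries. Of the 2 regions just outside, chr5:120284755-120285755 between Rbm19 and Lhx5 held between 1.02 and 13.7 normalized reads, and chr18:64710770-64711770 between Atp8b1 and Nedd4l was at 1 read in all libraries.

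Many gene-distant regions held almost no signal. Values are normalized reads, in which the lowest value of a library equals 1 read. All 6 libraries were at 1 read in 4381 gene-distant regions (42.3%), against 19.3% of the other regions. Only 1267 (12.2%) had a mean over the 6 libraries of at least 50 normalized reads, against 32.6% of the others. The median level per kb was 2.81 normalized reads in gene-distant regions and 35.6 elsewhere. The median width was 1001 bp in both sets, and gene-distant regions ranged from 246 to 27632 bp.

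The weak regions were largely ones without a peak. Among the gene-distant regions, 4573 (44.2%) overlapped no H3K27ac peak of any library, and 4222 of these (92.3%) were exactly 1001 bp wide. At 1 read in all 6 libraries were 3936 of the 4573, and the highest mean among them was 24.6 normalized reads. Of the 5775 gene-distant regions with a peak, only 36 had a width of 1001 bp. Such regions without a peak made up 29.3% of the other regions too. How the 1001-bp regions entered the authors' tables is not given in the sources used here. Of the 4573, between 317 and 431 passed the filter on low values in each comparison. In C3 against OSKM 20 of them were called higher and 7 lower, against 1018 and 174 of the 5264 tested regions with a peak.

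Between 18.9% and 51.3% of gene-distant regions overlapped a peak in a given library. The share was 42.2% and 18.9% in C2, 51.3% and 44.3% in C3, and 33.7% and 36.2% in OSKM. Among the other regions it was 58.4% and 36.0% in C2, 59.4% and 57.7% in C3, and 45.6% and 46.1% in OSKM. C2 replicate 2 stood lowest and also had the fewest reads in regions (7033486, against 10857991 to 17649231 in the other 5 libraries). In both libraries of a line, a peak lay on 1862 regions in C2, 4379 in C3 and 3087 in OSKM, and on 1572 regions in all 3 lines. Regions with a peak in both libraries of one line and in no library of the others numbered 456 for C3, 129 for OSKM and 10 for C2. The count for C2 requires a peak in its replicate 2. These counts were not made over the other regions, so they do not set gene-distant regions apart.

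Of all reads in regions on the same chromosomes, gene-distant regions held 3.44% and 3.25% in C3, 2.77% and 2.46% in C2, and 2.60% and 2.67% in OSKM. Both C3 libraries lay above the other 4, and C2 overlapped OSKM. With 2 libraries per line the smallest p of an exact two-sided permutation test is 0.333, so this difference cannot pass a threshold. The plot of reads and peaks by library shows these shares beside each other.

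**Figure D1:**
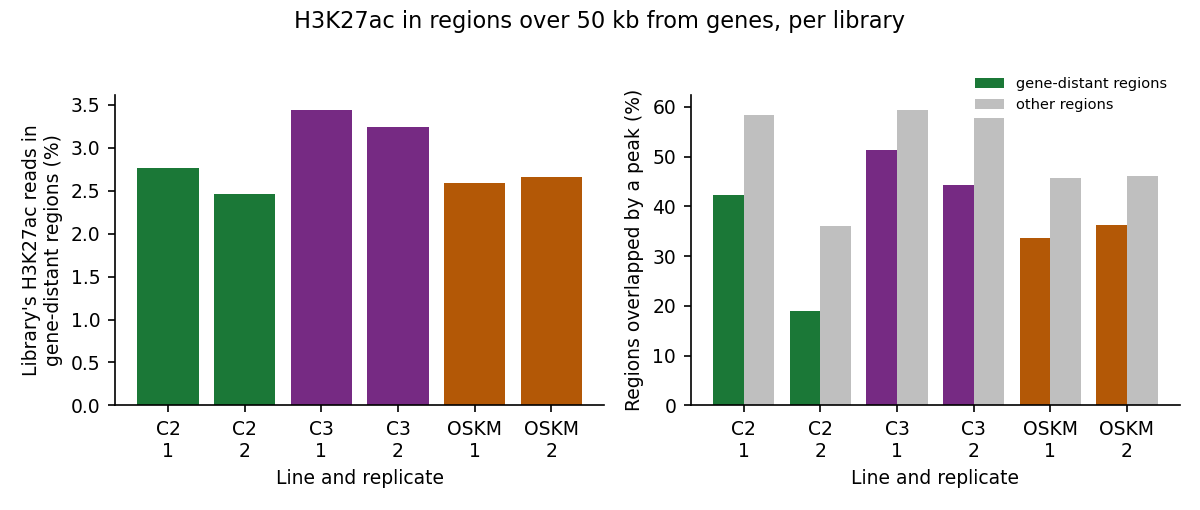
Gene-distant H3K27ac regions in each of the 6 libraries, with the share of the library's reads on the same chromosomes (percent, left) and the share of gene-distant regions (coloured) and other regions (grey) overlapped by a peak (percent, right); each bar is 1 library. C3 libraries hold 3.44% and 3.25% of reads in these regions, above the 2.46% to 2.77% of C2 and OSKM, and C2 replicate 2 has the lowest share with a peak (18.9%).

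A few regions and clusters of regions carried much of the signal. The 100 strongest regions held 28.0% of the summed mean level. Grouped by gaps of at most 12500 bp, 4467 regions (43.2%) fell into 1008 stretches of at least 3 members, which held 62.5% of the summed level. The largest stretch had 24 members, and 3605 regions had no other within that gap.

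The strongest region, chr4:55455843-55483474, was 27632 bp wide and lay between Rad23b, a nucleotide excision repair gene, and Klf4, one of the reprogramming factors. It held 5624 and 3793 normalized reads in C2, 9818 and 5788 in C3, and 9952 and 10166 in OSKM. Both C2 libraries lay below both OSKM libraries, but the log2 fold change of -1.12 ± 0.32 (SE) had an adjusted p of 0.0591. Next came chr10:70359539-70373745 between Slc16a9 and Fam13c (2910 and 2170 in C2, 4417 and 2851 in C3, 4847 and 4510 in OSKM), with log2 fold changes against OSKM of -0.90 in C2 and -0.40 in C3 and no call. At the assembled start of chromosome 18, chr18:3004270-3006091 held 2241 and 346 normalized reads in C2, 6185 and 2710 in C3, and 3401 and 2608 in OSKM. Its 2 C2 libraries lay far apart, and no comparison was called.

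The stretch with the highest summed level lay at chr6:100340971-100417744, between Rybp, a subunit of a Polycomb repressive complex, and Shq1, which assists assembly of small nucleolar RNA particles. Its 19 regions summed to 3902 and 3524 normalized reads in C2, 4831 and 3949 in C3, and 7522 and 7381 in OSKM. All C2 and C3 sums lay below the OSKM sums, and 4 of the 19 regions were called lower in each of the 2 lines. Its strongest region, chr6:100382954-100393963, fell in C2 (log2 fold change -1.01 ± 0.23, adjusted p = 0.0326). That call was lost under 4 alternatives, with adjusted p up to 0.466.

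The second stretch, chr10:70359539-70387227 between Slc16a9 and Fam13c, held 4 regions that summed to 3899 and 3021 in C2, 6025 and 3940 in C3, and 5701 and 5380 in OSKM. Both C2 sums lay below both OSKM sums, C3 overlapped OSKM, and none of the 4 regions was called in either line. At chr10:27972134-28024371, between the laminin gene Lama2 and the phosphatase gene Ptprk, 11 regions summed to 3457 and 2579 in C2, 6332 and 4206 in C3, and 3662 and 4157 in OSKM. The C2 sums lay below and the C3 sums above those of OSKM, and 1 region was called higher in each line. At chr19:14651024-14692310, 53.3 kb from the corepressor gene Tle4, 9 regions summed to 2754 ± 973 (SD, n = 2) in C2, 4019 ± 1301 in C3 and 3137 ± 42.8 in OSKM, with no call in either line.

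C3 was compared with OSKM to ask how H3K27ac differs where artificial factors replaced Oct4. Among the 5635 gene-distant regions that passed the filter on low values, 1038 were called higher in C3 and 181 lower, at an adjusted p under 0.05 (limma, Benjamini-Hochberg over the whole table). That was 21.6% called, beside 22% of all 101600 regions tested, of which 13.5% were higher and 8.52% lower. By direction, 18.4% of the gene-distant regions were higher and 3.21% lower. Higher regions thus made up 85.2% of their calls, against 61.3% over all regions, and the median log2 fold change was 0.62 against 0.03. Whether gene-distant and other regions differ in this was not tested. When libraries were centred on their median, 77.7% of the calls were higher and the median was 0.45, and after quantile normalization 78.6% and 0.30. Without OSKM replicate 1 the lower calls dropped to 120.

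The gains lay in many gene deserts. Of 1093 intervals between the same pair of flanking genes with a tested region, 480 held at least 1 region that rose in C3, 103 held at least 1 that fell, and 36 held both. In 122 intervals 3 or more regions rose, and these held 542 of the 1038. The intervals named in the next sentences were chosen after their values were seen. The most regions, 15 of 21 tested, rose between Cdh26, a cadherin gene, and 4930591A17Rik, over 777 kb of chromosome 2. The summed level there was 2679 and 1881 normalized reads in C3, 1756 and 1191 in C2, and 1006 and 989 in OSKM.

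At 35.5 kb of chromosome 17 between Ddx11, a DNA helicase gene, and Mtcl1, a microtubule crosslinker gene, 9 of 10 tested regions rose in C3 and 7 of 10 rose in C2. Their sums were 1047 and 649 in C3, 645 and 398 in C2, and 67.0 and 70.3 in OSKM. Both OSKM libraries lay below all others in this desert. Between Kit, the receptor for stem cell factor, and Kdr, a receptor for vascular endothelial growth factor, 8 of 9 regions over 36.1 kb rose in C3 and 3 of 9 in C2. Their sums were 657 and 335 in C3, 344 and 186 in C2, and only 16.3 and 13.7 in OSKM.

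On the other side of Kit, between it and the platelet-derived growth factor receptor gene Pdgfra, 10 of 16 tested regions rose in C3 and 1 of 18 in C2. The whole interval from Pdgfra to Kdr summed to 2344 and 1422 normalized reads in C3, 1230 and 586 in C2, and 367 and 465 in OSKM. Its strongest named region, chr5:75367624-75369375, held 275 and 137 in C3, 141 and 55.2 in C2, and 11.2 and 38.3 in OSKM. It rose in C3 by 3.16 ± 0.58 on the log2 scale (adjusted p = 0.00965, and 0.0876 without C3 replicate 1), while C2 gave 2.03 ± 0.65 (adjusted p = 0.0823).

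Single regions with the largest gains were at or near 1 read in OSKM. Between Gm525 and Nog, the gene of the BMP antagonist Noggin, chr11:89173640-89178518 held 706 and 347 normalized reads in C3, 402 and 210 in C2, and 1.02 and 0.913 in OSKM, which is 1 read in each OSKM library. Against a floor of 3 reads per OSKM library it was at least 182-fold higher in C3 and at least 106-fold higher in C2 (adjusted p = 0.00246 and 0.00867). Between Bub3, a spindle checkpoint gene, and Gpr26, an orphan receptor gene, chr7:131659159-131663549 held 525 and 409 in C3, 160 and 109 in C2, and 1 read in each OSKM library. It was at least 161-fold higher in C3 and at least 46.5-fold higher in C2. The C2 libraries were also both below the C3 libraries there, with a log2 fold change of -1.77 ± 0.31 and an adjusted p of 0.0610.

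The region chr13:6191995-6194768, between the zinc-finger factor gene Klf6 and the mitochondrial peptidase gene Pitrm1, held 260 and 127 in C3, 156 and 92.4 in C2, and 1 read in each OSKM library (at least 67.0-fold and 43.0-fold higher). At chr3:138653174-138656167, between the cap-binding factor gene Eif4e and the tetraspanin gene Tspan5, values were 323 and 269 in C3, 236 and 149 in C2, and 1.02 and 5.48 in OSKM. This region rose by 6.39 ± 0.63 in C3 and by 5.71 ± 0.68 in C2 on the log2 scale, and it overlapped an H3K9me3 peak in all 6 H3K9me3 libraries. The other named gains, at chr5:75824646-75826207 between Kit and Kdr, chr9:76695003-76697320 between Fam83b and Tinag and chr17:66254703-66256409 between Ddx11 and Mtcl1, rose in C3 by 6.35 to 6.55 and were at 1 read in both OSKM libraries. All 7 of these regions were called higher in both lines, and none lost its call under any alternative run.

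**Figure D2:**
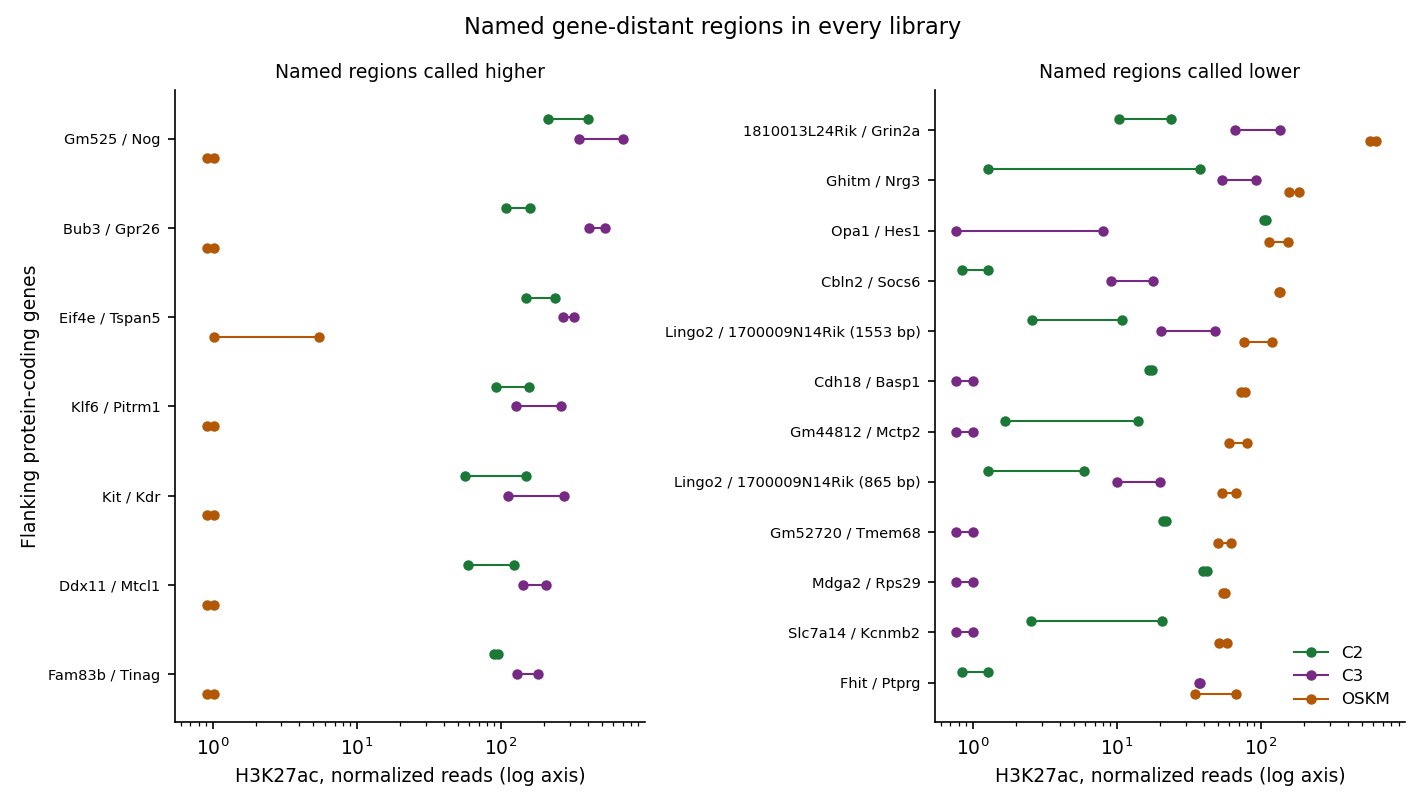
H3K27ac level (normalized reads, log axis) of named gene-distant regions in each of the 6 libraries, 1 row per region with its flanking genes and called higher (left) or lower (right) in C2 or C3 against OSKM; each point is 1 library, coloured by line, and lines join the 2 libraries. Regions gained against OSKM, such as the one between Gm525 and Nog (706 and 347 in C3, 402 and 210 in C2), sit at 1 read in OSKM.

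Regions that fell in C3 were fewer than those that rose. The largest loss by fold, chr15:24336046-24337126 between Cdh18 and Basp1, held 73.1 and 77.6 normalized reads in OSKM and 17.7 and 16.7 in C2, while each C3 library was at 1 read. Its log2 fold change in C3 was -5.40 ± 0.68 (adjusted p = 0.00411). The same order, with C2 between the other lines, was seen at chr7:71471597-71473056 between Gm44812 and Mctp2 (59.9 and 79.4 in OSKM, 1.68 and 14.1 in C2, 1 read in C3). It was also seen at chr3:31394414-31395169 between Slc7a14 and Kcnmb2, where OSKM had 50.8 and 58.4 and C2 had 2.52 and 20.5. At both of these regions C2 replicate 1 was close to the floor, so the place of C2 rests on its replicate 2. C2 against C3 was not called at either (adjusted p = 0.601 and 0.489).

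Between Opa1, a mitochondrial fusion gene, and Hes1, a Notch target gene that encodes a repressor, a loss was called in C3 and not in C2. The region chr16:29734054-29736099, 71.9 kb from Opa1 and 330 kb from Hes1, held 153 and 114 in OSKM, 0.769 and 8.03 in C3, and 108 and 105 in C2. It fell in C3 (log2 fold change -5.10 ± 0.82, adjusted p = 0.00674), and the value for C2 was -0.31 ± 0.26 (adjusted p = 0.459). C2 directly against C3 gave 4.80 ± 0.87 with an adjusted p of 0.0716, so the difference between the lines did not pass the threshold. Likewise at chr12:67861881-67862913, 640 kb from the nearest gene Mdga2, OSKM had 55.9 and 54.8, C2 had 39.5 and 42.3, and C3 was at 1 read in both libraries (log2 fold change -4.96 ± 0.70, adjusted p = 0.0051). The sixth, chr4:3430999-3433341 between Gm52720 and Tmem68, held 62.0 and 50.2 in OSKM and 21.0 and 21.8 in C2, with C3 at 1 read in both libraries.

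Some losses also lay together. In 19 intervals 3 or more regions fell in C3, and these held 71 of the 181 losses. The 2 intervals named next were chosen after their values were seen. Of 17 tested regions between 1810013L24Rik and Grin2a, a subunit gene of the NMDA receptor, 9 fell in C3 and 6 fell in C2. Their summed level was 2667 and 2555 normalized reads in OSKM, 843 and 998 in C3, and 894 and 603 in C2. This interval on chromosome 16 held the most losses of any interval in C3. Between Cobl, an actin nucleator gene, and Pom121l12 on chromosome 11, 5 of 30 regions fell in C3 and 2 rose. In C2 8 of 29 fell there and 1 rose. The median log2 fold change over these tested regions was 0.17 in C3 and -1.01 in C2.

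In C2 against OSKM the directions were balanced. Of 5336 gene-distant regions tested, 260 were higher in C2 and 237 lower, which is 9.31% called beside 10.6% of all 100957 regions (5.21% higher and 5.38% lower). The median log2 fold change was 0.14, against -0.01 over all regions. That small shift did not keep its direction: it was 0.03 with median-centred libraries, -0.20 after quantile normalization and -0.02 without C2 replicate 1. The split of calls moved with the scaling as well, from 52.3% higher to 44.3% with median-centred libraries and 62.2% after quantile normalization. The counts also moved when 1 library was left out: 590 were higher and 637 lower without C2 replicate 1, and 581 and 291 without C2 replicate 2. Without OSKM replicate 1 or 2 the lower calls were 135 and 136.

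Beside the 7 gains given above, the intervals with the most gains in C2 were chosen after their values were seen. Between Ccnd2, the cyclin D2 gene, and Parp11, all 4 tested regions rose in C2, with summed levels of 299 and 163 in C2, 272 and 202 in C3, and 5.08 and 4.56 in OSKM. Between A1bg and Myc, one of the reprogramming factors, 4 of 6 tested regions rose in C2, with sums of 355 and 221 in C2, 587 and 278 in C3, and 69.1 and 73.9 in OSKM. In both intervals the OSKM libraries lay below all others.

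Of the 6 largest losses by fold named in C2, the one with the highest level lay in the interval next to Grin2a. The region chr16:9133061-9137234, 433 kb from Grin2a, held 629 and 573 normalized reads in OSKM, 66.2 and 134 in C3, and 23.5 and 10.3 in C2. Its log2 fold change was -5.18 ± 0.38 in C2 and -2.66 ± 0.33 in C3 (adjusted p = 0.00758 and 0.004), and no H3K27ac peak was called there in C2. At chr18:87976923-87978141, between Cbln2 and Socs6, OSKM had 135 and 132, C3 had 17.7 and 9.03, and C2 was at 1 read in both libraries, at least 42.0-fold below OSKM. Each of the remaining named losses in C2 lost its call under 1 alternative, except chr4:38519468-38521020, given below. At chr14:11438889-11440018 between Fhit and Ptprg, C2 was at 1 read in both libraries, OSKM at 34.5 and 66.6, and C3 at 37.7 and 37.1 (adjusted p = 0.0186 for C2, and 0.116 without OSKM replicate 2).

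At chr14:37741541-37743297, between Ghitm and the neuregulin gene Nrg3, C2 had 37.8 and 1.28, C3 had 91.6 and 53.2, and OSKM had 156 and 183 (adjusted p = 0.0472 for C2, and 0.135 after quantile normalization). A pair of neighbouring regions between Lingo2 and 1700009N14Rik, chr4:38518301-38519165 and chr4:38519468-38521020, fell in C2, with log2 fold changes of -3.95 ± 0.78 and -3.89 ± 0.70. Only the first of them lost its call in C2, without OSKM replicate 2 (adjusted p = 0.0683).

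A direct comparison of C2 with C3 asks how H3K27ac differs between the line with ZFATF3 and the line with ZFATF4. Factor set, line and input cannot be told apart in it. Of 5507 gene-distant regions tested, 4 were lower in C2 and 0 higher, which is 0.0726% beside 0.0581% of all 101532 regions (0.0305% lower and 0.0276% higher). The median log2 fold change was -0.53, against -0.06 over all regions, and was between -0.71 and -0.30 when 1 library was left out. At an unadjusted p under 0.05, 881 regions were lower and 84 higher. That count was not made over all regions, so it does not set gene-distant regions apart. On whole reads recovered from the values, edgeR's quasi-likelihood test with TMM called 16 lower and 3 higher. The counts rested on C2 replicate 1 most: without it 620 regions were lower and 66 higher, and without C3 replicate 2 the counts were 175 and 13.

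The 4 called regions had different relations to OSKM. At chr1:102261306-102266205, 984 kb from the nearest gene and between Cntnap5b and Cdh20, C2 had 74.0 and 28.2 normalized reads, C3 had 476 and 227, and OSKM had 427 and 553. At chr14:40448538-40452318, between Nrg3 and Sh2d4b, C2 had 79.9 and 38.5, C3 had 329 and 276, and OSKM had 332 and 377. In both of these C2 was low, and both were called lower in C2 than in OSKM as well (log2 fold changes -3.38 and -2.65). In the other 2 regions C3 was high. The region chr1:186259254-186262552, 144 kb from Lyplal1 and 362 kb from Tgfb2, held 87.4 and 97.5 in C2, 420 and 377 in C3, and 117 and 118 in OSKM. At chr2:63890889-63893587, near the microtubule-severing ATPase gene Fign, C2 had 53.0 and 69.3, C3 had 254 and 258, and OSKM had 29.5 and 51.1. These 2 rose in C3 against OSKM by 1.76 ± 0.21 and 2.69 ± 0.32. The differences between C2 and C3 were -2.78 ± 0.44, -2.39 ± 0.36, -2.06 ± 0.29 and -2.03 ± 0.31 on the log2 scale, with adjusted p of 0.0392, 0.0336, 0.0227 and 0.0386. None of the 4 passed after quantile normalization.

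Distance from the nearest gene went with the difference between C3 and OSKM. Among regions with a mean of at least 50 normalized reads, the median log2 fold change in C3 was -0.13 up to 10 kb outside a gene, 0.14 at 10 to 50 kb, 0.34 at 50 to 100 kb, 0.53 at 100 to 500 kb and 0.35 beyond 500 kb. Of tested gene-distant regions, 21.0%, 16.5% and 13.5% were called higher in C3 in the last 3 of these ranges, against 11.7% up to 10 kb and 18.1% at 10 to 50 kb. In C2 the medians of strong regions were -0.27, -0.22, -0.29, -0.50 and -0.82 over the same ranges, the last over 45 regions. The share of reads was also counted by distance. Taking regions at 100 to 500 kb, C3 libraries held 1.36% and 1.24% of their reads there, OSKM libraries 0.946% and 0.984%, and C2 libraries 1.00% and 0.849%. The ratio of C3 to OSKM was 0.947 up to 10 kb, 1.07 at 10 to 50 kb, 1.23 at 50 to 100 kb, 1.35 at 100 to 500 kb and 1.18 beyond 500 kb, and it was 0.995 inside genes. It thus did not go on rising beyond 500 kb. Regions share libraries and depth, so this is a description of the 6 libraries and carries no test.

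**Figure D3:**
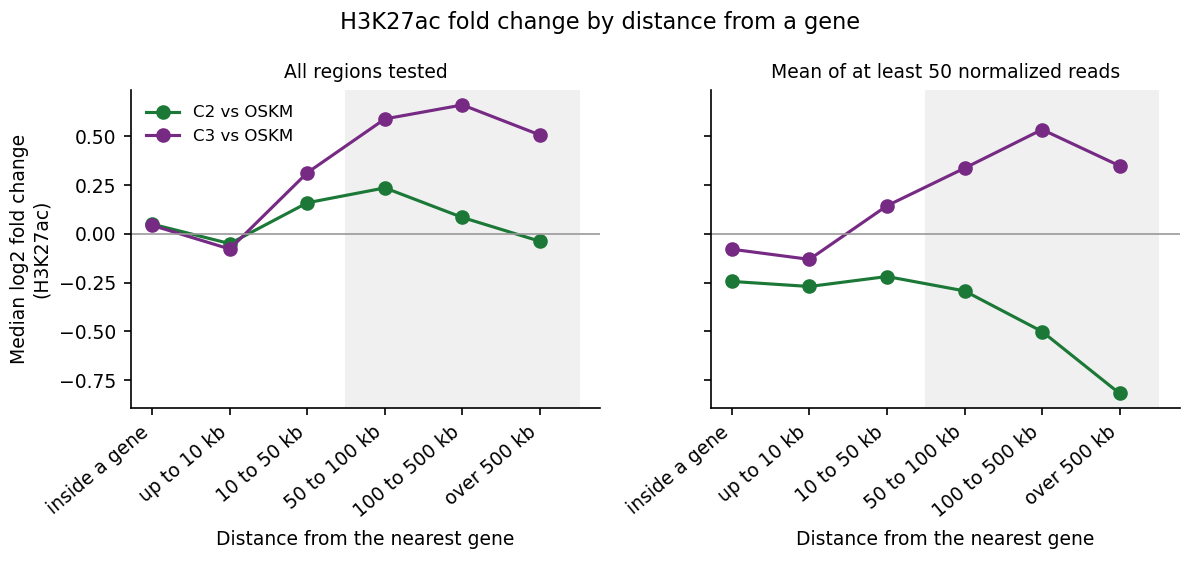
Median H3K27ac log2 fold change against OSKM (C2 green, C3 purple) by distance from the nearest protein-coding or lncRNA gene, over all tested regions (left) and those with a mean of at least 50 normalized reads (right); shading marks distances over 50 kb. For C3 against OSKM the median of strong regions goes from -0.13 up to 10 kb to 0.53 at 100 to 500 kb, and for C2 against OSKM it goes from -0.27 to -0.50.

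Strength went with the direction of calls. In C2 the 91 strongest gene-distant regions (a mean of at least 400 normalized reads over the libraries compared) had a median log2 fold change of -0.76, with 34 called lower and 0 higher. Other regions of that strength had a median of -0.57, with 21.3% called lower and 0.553% higher. At 10 to 25 normalized reads, 134 of 1676 gene-distant regions were higher in C2 and 17 lower. Of 20213 other regions in that range, 1987 were higher (9.83%, a larger share) and 165 lower (0.816%). The excess of higher calls among weak regions in C2 was thus not particular to gene-distant regions. In C3 the medians of gene-distant regions were above 0 in each range below 400 normalized reads, at 1.01 for 10 to 25 reads, 0.67 for 50 to 100 and 0.22 for 200 to 400. At 400 or more the median was -0.03, with 15 called higher and 10 lower (10.4% and 6.94%, against 6.69% and 7.88% of other regions). Other regions had medians of 0.45, 0.03 and -0.10 in the same 3 ranges below 400.

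**Figure D4:**
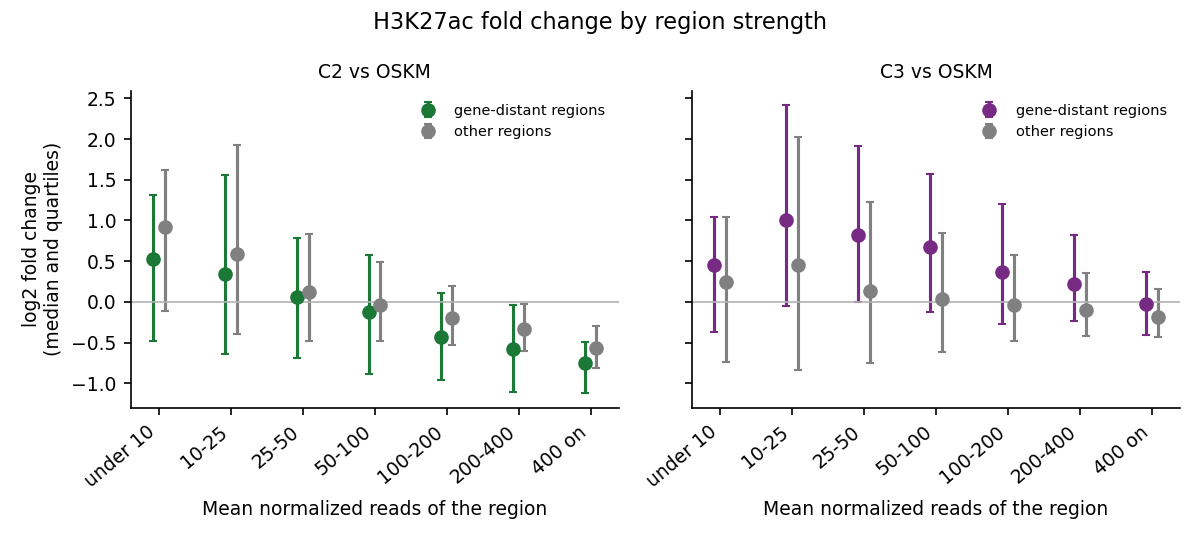
Median log2 fold change against OSKM by mean level (normalized reads) for gene-distant (coloured) and other regions (grey), for C2 (left) and C3 (right); lines span the quartiles over regions. In C3 against OSKM the gene-distant regions lie above the others in each range, for example 0.67 against 0.03 at 50 to 100 normalized reads, and in C2 against OSKM both fall below 0 from 50 normalized reads on.

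Regions flanked by developmental genes were counted over 7 gene lists, chosen with earlier results of these data known. For each list the background is that of all regions, 13.5% higher and 8.52% lower in C3 against OSKM and 5.21% and 5.38% in C2 against OSKM. A region is counted under a gene that flanks it, at any distance. Endoderm genes flanked 75 gene-distant regions next to 7 genes, and of 43 tested in C3 23 rose and 0 fell, with a median log2 fold change of 2.66. Between 16 and 22 rose under the other scalings and with any 1 library left out. The members next to Pdgfra, which marks primitive endoderm among other cells, gave 10 of these 23. Next to Foxa2, a forkhead factor of definitive and primitive endoderm, 5 of 7 tested regions rose. Next to Sox17, an endoderm factor of the Sox family, 3 of 4 rose, and next to Dab2, an endocytic adaptor, 3 of 7 rose. In C2, 8 of 46 rose and 0 fell, with a median of 1.38. These C2 counts moved with the scaling, to 2 and 0 after quantile normalization and 10 and 1 with median-centred libraries. Without C2 replicate 1 the median was 0.64.

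Markers of primitive endoderm moved with these counts. The regions at Gata4, Gata6, Sox17, Foxa2, Pdgfra and Dab2 themselves summed to 2541 and 1611 normalized reads in C3, 1646 and 843 in C2, and 350 and 572 in OSKM. Their part in the result was not tested. The strongest region of the list, chr15:5893433-5898449 between Ptger4 and Dab2, held 572 and 444 in C3, 342 and 162 in C2, and 464 and 463 in OSKM. Both C2 libraries lay below the other 4, but the log2 fold change of C2 against OSKM was -0.98 ± 0.33 with an adjusted p of 0.0916 (0.00585 to 0.317 over the alternatives), and no comparison was called.

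Naive and core pluripotency genes flanked 250 regions next to 12 genes, and 44 of 127 tested rose in C3 and 2 fell, with a median of 1.03. Kit, placed in that list, accounted for 18 of the 44, all in the interval shared with Pdgfra and Kdr. Outside the Pdgfra to Kdr interval, 26 of 102 rose and 2 fell. That interval likewise holds 10 of the 23 endoderm gains and 8 of the 18 mesoderm gains, so the 3 lists share members. Next to Sox2, the reprogramming factor present in every line, 7 of 20 tested regions rose. Next to Myc the count was 7 of 13, and next to Klf5, a factor of naive pluripotency, it was 4 of 19. Next to Esrrb and Tbx3, both factors of naive pluripotency, 0 of 4 and 0 of 5 were called. The region between Sall4 and Zfp64 (chr2:168838463-168842765) held 621 and 445 in C2, 842 and 493 in C3, and 813 and 864 in OSKM, with no call.

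Primed and formative pluripotency genes gave 6 higher and 0 lower of 41 tested in C3, and all 6 had Cdh2, the N-cadherin gene, as a flanking gene. Among them, chr18:17416387-17421139, 610 kb from Cdh2, held 562 and 247 in C3, 326 and 123 in C2, and 173 and 136 in OSKM, and chr18:18609310-18613073, 1802 kb from Cdh2 and 1350 kb from Dsc3 on the other side, held 383 and 272, 198 and 121, and 112 and 158. They rose in C3 by 1.28 ± 0.37 and 1.27 ± 0.28 on the log2 scale (adjusted p = 0.0450 and 0.0162), and both calls were lost without C3 replicate 1. In C2 the values were 0.39 ± 0.41 and 0.22 ± 0.31, with 0 of 42 members of the list called higher and 1 lower.

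Fibroblast and mesenchymal genes, which mark the starting cells, gave 15 higher and 0 lower of 51 tested in C3, and 9 of the 15 lay between Lyplal1 and Tgfb2, the gene of a transforming growth factor beta ligand. The next most, 4 of 14, were next to Tbx18, a T-box factor. Over the 50.3 kb of chromosome 1 with tested regions between Lyplal1 and Tgfb2, 9 of 11 rose in C3, and the interval summed to 2053 and 1531 normalized reads in C3, 652 and 385 in C2, and 189 and 217 in OSKM. The strongest region there, chr1:186253410-186258960, held 840 and 597 in C3, 287 and 169 in C2, and 52.8 and 48.4 in OSKM, and it rose in both lines (3.78 ± 0.25 in C3 and 2.10 ± 0.31 in C2 on the log2 scale). Its neighbour chr1:186233625-186238880 held 568 and 372 in C3, 188 and 93.7 in C2, and 1.02 and 34.7 in OSKM, and its call in C3 (adjusted p = 0.0111) was lost when either C3 library was left out. Fibroblast markers themselves were low in every library, with summed levels of 72.1 to 148 normalized reads over 7 of 8 markers with a region, and Postn was at 1 read.

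The remaining 3 lists were of mesoderm, neuroectoderm and trophoblast genes. Mesoderm genes had 18 higher and 2 lower of 58 in C3, with 8 next to Kdr, and 10 higher of 49 outside the Pdgfra to Kdr interval. The strongest mesoderm regions, chr11:19847416-19852323 and chr11:19828856-19831167 between Meis1 and Spred2, were not called in any comparison, and the second held between 201 and 234 normalized reads in all 6 libraries. Neuroectoderm genes had 6 higher and 0 lower of 66 in C3, which is below the background share, and their strongest regions, between Irx1 and Irx2 (chr13:72250824-72256231) and between Rbm19 and Lhx5 (chr5:120296497-120299554), were not called. Trophoblast genes had 6 higher and 3 lower of 31, and of these 3 of 8 next to Tfap2a and 3 of 11 next to Gata3 were higher.

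Near Tfap2a, a trophoblast and neural crest factor, one region went the other way. The region chr13:40647482-40651011 held 391 and 341 normalized reads in OSKM, 102 and 171 in C3, and 117 and 163 in C2. Its log2 fold change was -1.40 ± 0.24 in C2 and -1.46 ± 0.28 in C3 (adjusted p = 0.0174 and 0.0114), and both calls were lost after quantile normalization (adjusted p = 0.0907 in C2 and 0.0500427 in C3). The other strong trophoblast region, chr2:172733511-172736429 between Tfap2c, a factor of the same family, and the growth factor gene Bmp7, held 195 and 126 in C2, 123 and 143 in C3, and 157 and 157 in OSKM, and was not called in C2 or C3 against OSKM.

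The heterochromatin mark H3K9me3 was measured over its own set of regions. An H3K9me3 region lay on 2895 of them (28.0%) and on 7.44% of the others. Among regions with a mean of at least 50 normalized H3K27ac reads, the shares were 27.2% and 6.35%. Peaks of H3K9me3 lay on 26.2% and 25.4% of gene-distant regions in OSKM, 20.1% and 11.7% in C3, and 14.7% and 20.1% in C2. Both OSKM libraries lay above the other 4, but not when 50% of the peak had to lie inside, where OSKM replicate 2 (11.8%) lay below C2 replicate 2 (13.3%) and C3 replicate 1 (12.8%). Among the other regions both OSKM libraries were highest as well (6.97% and 6.70%, against 3.27% to 5.75% in C2 and C3). They also held the most reads in H3K9me3 regions (7118324 and 8548902, against 3412599 to 6492161). The part of depth in this was not tested.

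The overlap was also counted by H3K27ac call. In C2 against OSKM an H3K9me3 region lay on 52.3% of the regions that fell, 7.69% of those that rose and 37.9% of those tested and not called. In C3 against OSKM the shares were 36.5%, 14.5% and 44.7%. These overlaps are a description and carry no test.

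H3K9me3 itself was compared at the 3025 H3K9me3 regions that overlap gene-distant H3K27ac regions. In C3 against OSKM, 173 of 1793 tested were lower and 20 higher, which is 10.8% called beside 9.06% of all 51633 H3K9me3 regions tested (7.35% lower and 1.72% higher). In C2 against OSKM, 30 of 1819 were lower and 11 higher (2.25%, beside 3.29% of all, with 2.9% lower and 0.389% higher), and in C2 against C3, 1 of 1785 was higher and 0 lower (beside 0.134%, with 0.0465% higher and 0.0872% lower). The counts of lower regions in C3 ranged from 44 without OSKM replicate 2 to 314 without C3 replicate 1, and in C2 from 3 without OSKM replicate 2 to 212 without C2 replicate 2. In C2 against C3, 124 were higher and 38 lower at an unadjusted p under 0.05, a count not made over all H3K9me3 regions. At regions whose H3K27ac fell in C3, 25 of 71 tested H3K9me3 regions were lower in C3 as well and 0 were higher, with a median log2 fold change of -0.50. At regions whose H3K27ac rose in C3, 9 of 123 were lower and 8 higher. Where H3K27ac was tested and not called in C3, 134 of 1216 were lower and 5 higher, with a median of -0.33. For C2 against OSKM, 9 of 146 were lower and 0 higher where H3K27ac fell (median -0.24). Where H3K27ac rose in C2, 0 of 20 were lower and 2 higher (median 0.52). Where it was not called in C2, 20 of 1173 were lower and 9 higher (median -0.14). These counts carry no test.

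**Figure D5:**
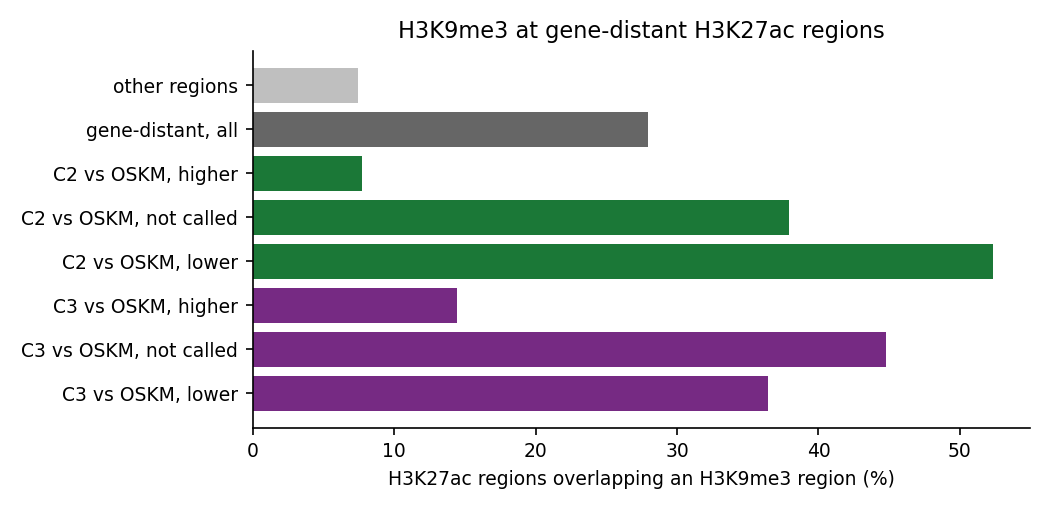
Share of H3K27ac regions that overlap an H3K9me3 region (percent), for other regions, for all gene-distant regions, and for gene-distant regions by their H3K27ac call in C2 (green) and C3 (purple) against OSKM. In C2 against OSKM the bar of regions that fell reaches 52.3% and that of regions that rose 7.69%, while 7.44% of other regions overlap.

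HA peaks, which map the artificial factors, lay on 2.52% and 8.48% of gene-distant regions in the C2 libraries and on 1.33% and 4.57% in the empty-vector libraries, so the groups overlapped. On the other regions the shares were 0.486% and 1.48% in C2 and 0.235% and 0.787% with the empty vector. In all 4 libraries the share was thus higher on gene-distant regions, the empty-vector background included. In both C2 libraries a peak lay on 153 regions, and 80 of these had none in either empty-vector library. Only 1 of the 80 had a mean of at least 50 normalized H3K27ac reads. Of 48 tested in C2 against OSKM 0 were called, beside 9.31% of gene-distant regions and 10.6% of all regions tested. Of 57 tested in C3 against OSKM 1 was higher and 0 lower, beside 21.6% and 22% called in those sets. These shares are not matched for H3K27ac level, so the counts do not set these regions apart. None of the named gains and losses overlapped an HA peak of a C2 library. Per the file headers, 0.92 to 0.94 of the reads of the HA libraries were redundant. Reads kept numbered 2506011 and 3896935 in C2 and 1707437 and 1629753 with the empty vector. The H3K27ac libraries kept 28947967 to 33760862. A missing HA peak therefore does not show that a factor was absent. The HA libraries of C2 come from cells at day 20 and the histone libraries from iPS cells, so binding and acetylation were not measured in the same cells.

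The iPS cell label was checked against markers. Regions at the iPS cell markers Pou5f1, Nanog, Sox2, Esrrb, Tdgf1, Lin28a, Sall4 and Dppa5a summed to 20381 and 14936 normalized reads in C2, 33377 and 20507 in C3, and 34343 and 34359 in OSKM. Both OSKM libraries lay above the other 4 in this sum, and also at Pou5f1, Nanog, Sox2, Esrrb and Tdgf1. At Lin28a, Sall4 and Dppa5a, C3 replicate 1 lay above both OSKM libraries. The part of these levels in the comparisons with OSKM was not tested. Fewer cells with a mark and a lower mark per cell cannot be told apart in bulk ChIP-seq.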

How the data were processed

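ChIP-seq of H3K27ac, H3K9me3 and the HA tag was analysed from 16 peak files and 6 region tables, and 6 input samples were not analysed on their own. Per the submitters' processing notes, reads were handled by the authors with DiffBind 1.16.2, SAMtools 1.3, Bowtie2 2.2.5 and CASAVA 1.8.2 on mm10. Per the file headers, peaks were called per library against an input with MACS 2.1.0.20150731 (histone marks) or 2.1.1.20160309 (HA). The deposited region tables hold the signal of 4 libraries each as normalized reads, with the authors' log2 fold change, p-value and FDR. The deposited peak files hold a pileup signal, a -log10 p-value and q-value, and a fold enrichment ratio. Columns of the C3 line carry another name in the tables and were matched through the headers of the C3 peak files.

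Divided by what 1 read is worth in its library, 100% of values were whole (tolerance 1e-06). Log2(normalized reads + 1) was fitted with limma 3.58.1 (R 4.3.3, trend) on each whole table, leaving out the lowest 25% of regions by mean, with calls at an adjusted p under 0.05 (Benjamini-Hochberg). A fold change on this scale understates that of weak regions. Values of single libraries come from the C2 and OSKM table, with C3 values divided by 1.09, the ratio of the OSKM values in the tables, and tests were run within a table only. Regions at 1 read in both libraries of a group were bounded with a floor of 3 reads per library, which covers counting error only. Reads in regions numbered 7033486 to 17649231 per H3K27ac library.

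In simulated data with 200 changed regions, 4-fold changes of H3K27ac were recovered in 83% (C2 against OSKM), 86% (C3 against OSKM) and 80% (C2 against C3), 2-fold changes in 26%, 30% and 9%, and 5.22%, 3.33% and 4.30% of calls were false. The changed regions were drawn from those above the median level of all regions, and each was given the spread typical of its level. Recovery in weaker regions, which are common among the gene-distant ones, was not simulated. edgeR 4.0.16 on whole reads, DESeq2 1.42.0 size factors, other filters, scalings, pseudocounts and distances were alternatives. One alternative, regions with a peak only, was chosen after seeing the data. Other steps used Python 3.11.15, pandas 2.3.3, NumPy 2.4.6 and matplotlib 3.10.9.

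Members and gene lists were chosen with earlier results of these data known, and 1 gene of the lists is not reported here. Regions were named by rule: per comparison the 6 largest changes in each direction among called regions with no overlap between groups and a mean of at least 50 in the higher group, the 2 strongest per gene list, the 5 strongest of all members, the 5 strongest stretches, and 2 on each side of the distance threshold. Genome sequence of the regions was not used here.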

Additional observations from a re-analysis of the deposited data

Results flagged for a closer look

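In 4 gene-distant regions the C2 and C3 lines differed by the direct test of C2 against C3 (limma, 2 libraries per line). Factor set, line and input cannot be told apart in that test. The log2 difference of C2 minus C3 was -2.06 at chr1:186259254-186262552 between Lyplal1 and Tgfb2 (adjusted p = 0.0227), -2.39 at chr14:40448538-40452318 between Nrg3 and Sh2d4b (0.0336), -2.03 at chr2:63890889-63893587 near Fign (0.0386) and -2.78 at chr1:102261306-102266205 between Cntnap5b and Cdh20 (0.0392). Both C2 libraries lay below both C3 libraries in each. At the regions between Lyplal1 and Tgfb2 and near Fign the C3 libraries lay above those of C2 and OSKM, and at the other 2 regions the C2 libraries lay below those of C3 and OSKM. After quantile normalization the adjusted p of the 4 regions was 0.165 to 0.184.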

How the results depend on the processing

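Counts are of gene-distant regions called higher and lower. In C2 against OSKM, where 260 were higher and 237 lower, quantile normalization gave 89 and 54, the authors' deposited FDR 752 and 357, leaving out the lowest 50% of regions 173 higher, edgeR with TMM 395 higher, and median-centred libraries 423 lower. Leaving out 1 library gave 213 to 590 higher and 135 to 637 lower. In C3 against OSKM (1038 and 181), median-centred libraries gave 275 lower, and leaving out 1 library gave 749 to 1142 higher and 120 to 244 lower. In C2 against C3 (0 and 4), the counts were 9 and 265 with no region left out, 1 and 9 at pseudocount 8, 1 and 7 with robust variance, 3 and 16 with edgeR and TMM, 3 and 15 with DESeq2 size factors, 31 and 95 by the authors' deposited FDR, and 0 lower after quantile normalization. Leaving out 1 library gave 4 to 66 higher and 14 to 620 lower. An arm then has 1 library, which is assumed to vary like the other group.

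The median log2 fold change after quantile normalization was -0.20 in C2 and 0.30 in C3 against OSKM, and in C3 it was 0.45 with median-centred libraries and 0.37 at pseudocount 8. Without 1 library the medians ran from -0.02 to 0.29 in C2 against OSKM, 0.50 to 0.71 in C3 against OSKM and -0.71 to -0.30 in C2 against C3. Median centring moved the median of all regions from -0.01 to -0.13 in C2 and from 0.03 to -0.14 in C3. With a distance of 25 kb, 10.2% of regions were called in C2 and 23.3% in C3, and with 100 kb 8.50% and 18.6%.

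For H3K9me3 in C2 against OSKM, 1 region was lower with no region left out and 1 after quantile normalization, and leaving out 1 library gave 7 to 78 higher and 3 to 212 lower. In C3 against OSKM, 44 higher and 265 lower were called with no region left out and 47 and 112 after quantile normalization, and leaving out 1 library gave 6 to 42 and 44 to 314. In C2 against C3, 15 and 3 were higher under these settings, and leaving out 1 library gave 0 to 21 higher and 0 to 9 lower.

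The labels do not say that a replicate number marks a shared culture or day, so the libraries share only a number. The correlation of same-numbered residuals was -0.05, -0.04 and 0.35 for H3K27ac (C2 against OSKM, C3 against OSKM, C2 against C3) and 0.0024, 0.035 and 0.11 for H3K9me3, with 2 pairs each. With a replicate block, H3K27ac counts were 411 and 396 in C2 against OSKM and 52 and 817 in C2 against C3. For H3K9me3 the block gave 34 and 72 in C2 against OSKM, 42 higher in C3 against OSKM and 18 higher in C2 against C3.

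With peaks at a -log10 q of at least 5, the share with an H3K27ac peak was 38.3% in C3 replicate 2 and 30.2% and 32.9% in OSKM, the H3K9me3 share was 24.0% and 23.8% in OSKM, and the HA share was 1.97% in replicate 2 of the empty vector. Requiring 50% of the peak inside, H3K9me3 shares were 10.6% and 13.3% in C2, 12.8% in C3 replicate 1, and 15.7% and 11.8% in OSKM.

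Of 51 calls at named regions, 31 were kept under every alternative run and 20 were lost under at least 1, most often after quantile normalization (14) and without OSKM replicate 2 (9). Of 26 named values that were not called, 16 were called under at least 1 alternative. The sign changed in 11, none of them called. Leaving out 1 library gave C2 values against OSKM of -0.31 to 1.08 at chr18:17416387-17421139, -0.14 to 0.57 at chr18:18609310-18613073, -0.48 to 0.27 at chr5:120296497-120299554, -0.034 to 0.16 at chr11:19828856-19831167 and -0.32 to 0.31 at chr2:172733511-172736429. It gave C3 values of -0.77 to 0.0062 at chr2:168838463-168842765, -0.060 to 0.30 at chr15:5893433-5898449, -0.23 to 0.053 at chr11:19847416-19852323, -0.0043 to 0.19 at chr11:19828856-19831167 and -0.14 to 1.05 at chr18:3004270-3006091. After quantile normalization the C2 value was 0.14 at chr5:120296497-120299554 (0.0072 with edgeR and TMM) and 0.049 at chr13:72250824-72256231, and the C3 value was 0.063 at chr11:19847416-19852323. At chr2:172733511-172736429 the C2 value was 0.20 after quantile normalization, 0.097 with edgeR and TMM, 0.055 with DESeq2 size factors and 0.029 in the authors' deposited table. With median-centred libraries the values were -0.050 in C2 and -0.080 in C3 at chr11:19828856-19831167 and -0.049 in C3 at chr15:5893433-5898449. The cause of these changes was not tested. With 2 libraries per line a 2-fold change was recovered in 9% to 30% of simulated H3K27ac regions above the median level, so a region that was not called may still differ.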
